A study of Mus musculus with 9 samples.

Results

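The large subunit of the cytosolic ribosome carries the peptidyl transferase center and the tunnel through which the nascent protein leaves. It is built in the nucleolus from ribosomal RNA and a large set of ribosomal proteins, whose genes carry the prefix Rpl in the mouse, and cells normally keep the mRNAs of these proteins in balance with one another. Free RPL5 and RPL11, bound to 5S rRNA, can hold MDM2 and so stabilize p53, which links faults in ribosome assembly to cell cycle arrest. The genes described here are the rows whose names match Rpl followed by a number, with the suffixes a, al, l or l1 allowed, or *Rplp0* to *Rplp2*. They were chosen by name and not by any measured value. The rule found 49 of the 15184 genes in the table, and all 49 were tested, because each had passed the low-value filter that the authors applied before deposition. They comprise 46 genes of the core set and 3 close copies, *Rpl7l1*, *Rpl22l1* and *Rpl36al*. *Rpl3l*, *Rpl10l*, *Rpl26l1* and *Rpl39l* had no row in the table.

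PolyA+ RNA was measured in mouse embryonic fibroblasts (MEFs), primary cells cultured from embryos, with 3 libraries from empty vector cells, 3 from a line named SAM1 and 3 from a line named SAM2, the last 2 labelled Hnrnpk_SAM. All cells were wild-type MEFs that had received the lentiviral parts of the synergistic activation mediator (SAM), in which an inactive Cas9 brings transcriptional activators to a gene chosen by a guide RNA. The study designed separate guides against *Hnrnpk* for the SAM cells and describes its control both as empty vector and as a plasmid with a nontargeting guide. Transduced cells were selected with antibiotics, the labels do not say which guide each line carries, and nothing says that the 3 libraries of a line came from separate cultures. The p-values below therefore measure the spread between libraries, and each group rests on 1 line. The values are normalized counts, which are HTSeq read counts per gene divided by the size factor of the library, and tests were made with limma on log2(normalized count + 1), with adjusted p-values over all 15184 genes and a threshold of 0.05.

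*Hnrnpk*, the targeted gene, had normalized counts of 25058, 26098 and 26164 in empty vector, 24102, 24045 and 23619 in SAM1 and 26608, 26859 and 26221 in SAM2. Its log2 fold change against empty vector was -0.11 (adjusted p = 0.00252, standard error 0.027) in SAM1 and 0.044 (adjusted p = 0.159, standard error 0.027) in SAM2, so the SAM2 libraries lay just above the empty vector range without passing the test and SAM1 was lower, and the lines are called by their labels. Reads on listed genes were recovered in 8 of the 9 libraries and numbered 41759636 to 49026626. All 11 fibroblast markers examined were in the table, with summed normalized counts of 1050495 to 1144124 in empty vector, 897505 to 955315 in SAM1 and 1176496 to 1215039 in SAM2. Single fibroblast markers were mixed, with 7 lower and 3 higher in SAM1 and 5 lower and 3 higher in SAM2. The 4 endothelial markers summed to 301 to 357 in empty vector, 4613 to 4988 in SAM1 and 638 to 689 in SAM2. These too were mixed, with log2 fold changes from -0.30 to 4.48 in SAM1, where 2 were higher and 2 not called. In SAM2, 1 was lower and 2 were higher. Of the other markers, 2 of 4 epithelial genes summed to at most 113, 2 of 4 leukocyte genes to at most 800.1, and neither of the 2 hemoglobin genes had a row. The part of these differences in the results below was not tested. In bulk RNA, fewer cells that express a gene and less RNA per cell cannot be told apart.

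Within the groups, replicate 2 stood somewhat apart in the members. Among the 3 libraries of its group it had the highest value for 30 of 49 members in empty vector, 47 in SAM1 and 39 in SAM2. The median deviation of the members from the group mean was 0.05, 0.086 and 0.03 on the log2 scale in these libraries. In 544 other well-expressed genes with under 500 coding bases it was 0.062, 0.067 and 0.016, and in 2518 genes with 2000 or more coding bases -0.044, -0.058 and -0.015. Without replicate 2 of SAM1 the median log2 fold change of the members in that line against empty vector was -0.20, and with it -0.14. The part of this in the members' changes was not tested. Over all genes, the spread between libraries also differed by group. Between libraries of a group, the chi-square per gene on recovered reads was 11.0 to 13.2 in empty vector. It was 1.45 to 9.34 in SAM1 and 2.29 for the 1 pair of SAM2 libraries with recovered reads. The fit of 3 groups uses 1 shared estimate of the spread.

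The mRNAs of the large subunit did not move as one block. In SAM1, 28 of the 49 members were lower than in empty vector and 8 were higher, where 36.9% of all genes were called lower and 37.3% higher. In SAM2, 24 were lower and 12 higher, against 35.3% and 35.2% of all genes. On the deposited scale, members were thus called lower more often than the background (57.1% in SAM1 and 48.98% in SAM2) and higher less often (16.3% and 24.5%). This is a description with no test of the list, and other scales are given below. The median log2 fold change of the members was -0.14 in SAM1 and -0.14 in SAM2, and that of all genes was 0.0093 and -0.0015. Members ranged from -0.66 to 0.45 in SAM1 and from -0.66 to 0.45 in SAM2. The members are abundant mRNAs, and among the 1505 other genes in the top 10% by mean level 53.4% were lower and 28.5% higher in SAM1, with a median of -0.11. In SAM2, 50.03% of these were lower and 31.6% higher, with a median of -0.085, so the share of members lower in SAM2 was no larger than among these genes. Most members lie below this top 10%, so the sets are not matched by abundance. The lines share the empty vector libraries, so the 2 comparisons are not independent of each other.

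With both lines taken as one group, as their shared genotype label has it, 22 members were lower and 7 higher, where 27.0% and 26.8% of all genes were called. The split was 15 and 9 after quantile normalization (28.7% and 24.9% of all genes), 11 and 10 with values divided by the library sum (18.97% and 34.1%), and 22 and 0 relative to *Gapdh* and *Actb* (28.5% and 13.1%). The median of the members was -0.14. The groups did not overlap for 24 members below and 7 above the empty vector range in SAM1 (37.1% and 37.3% of all genes), and for 26 below and 12 above in SAM2 (36.8% and 36.7% of all genes). Ranges of the 6 SAM libraries lay below those of empty vector for 18 members and above them for 6 (27.2% and 25.9% of all genes).

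**Figure D1:**
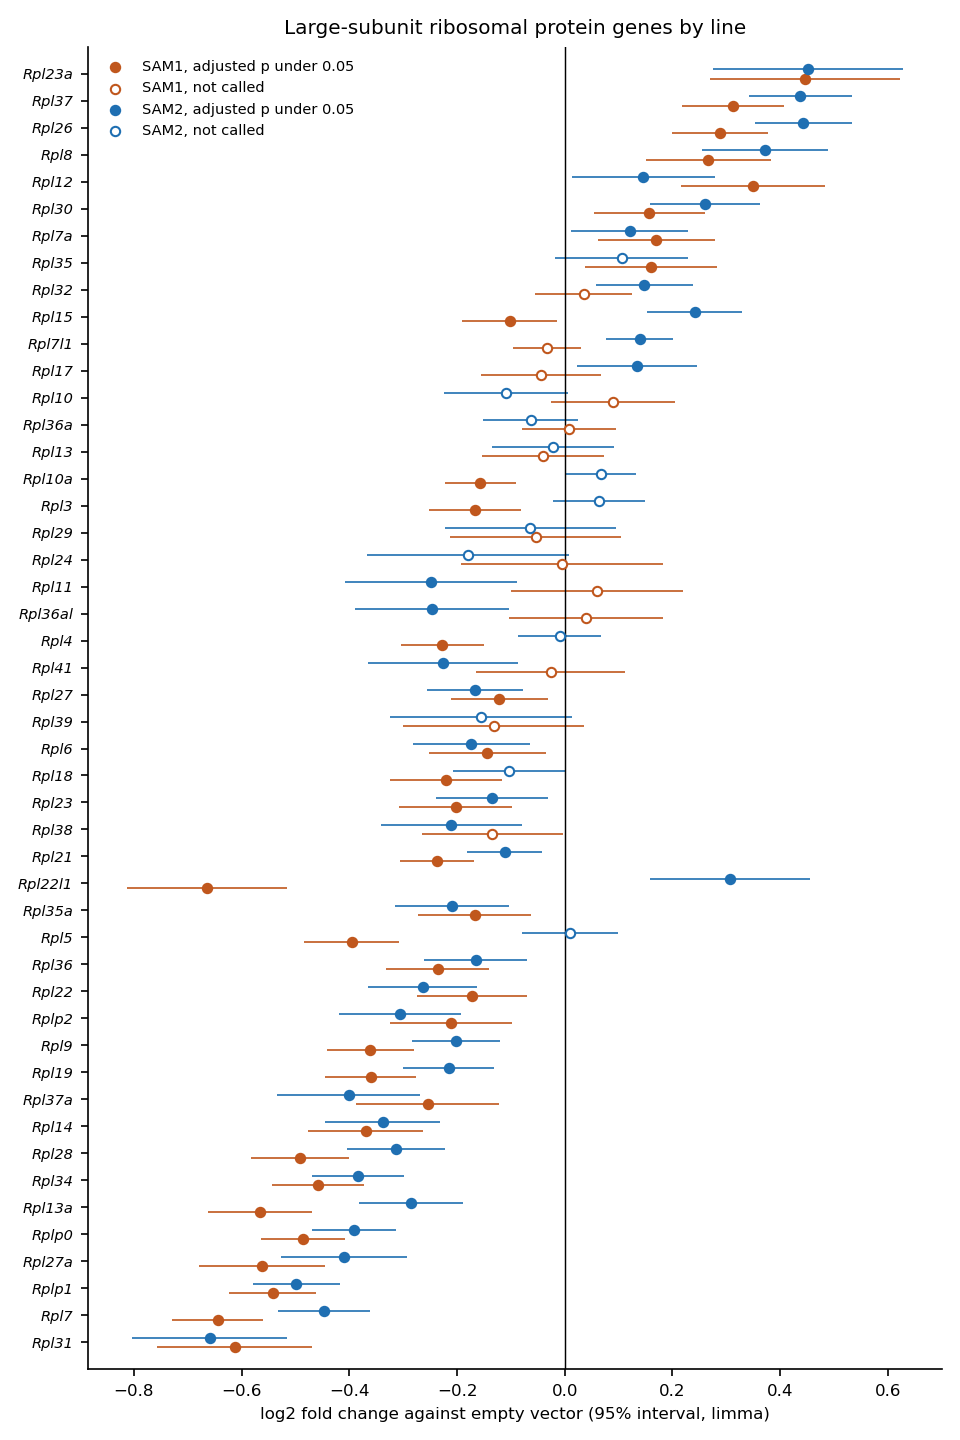
Log2 fold change of 48 of the 49 members against empty vector in SAM1 (orange) and SAM2 (blue), ordered by the mean of both, with 95% intervals from limma and filled points where the adjusted p was under 0.05. *Rpl31* and *Rpl7* stand at the low end and *Rpl23a* at the high end, and *Rpl22l1* lies on opposite sides of 0 in the lines (-0.66 and 0.31).

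The size of this picture depended on what each library was scaled to. When values were divided by the sum of all listed genes, 14 members were lower and 14 higher in SAM1 (27.2% and 47.8% of all genes), and 14 and 17 in SAM2 (27.2% and 42.5%). Quantile normalization gave 17 lower and 11 higher in SAM1 (39.5% and 34.3% of all genes), and 23 and 15 in SAM2 (37.01% and 33.3%). The share of members called lower was thus close to the background in both lines with the library sum. After quantile normalization it was below the background in SAM1 and above it in SAM2. *Gapdh* and *Actb* served the study, singly or together, as controls of its qRT-PCR. Relative to both, 46 members were lower and 0 higher in SAM1 (63.1% and 18.1% of all genes), and 26 and 9 in SAM2 (36.2% and 33.1%). The share of members lower was above the background in both lines on this scale. *Gapdh* itself had 7007, 6300 and 6664 in empty vector, 10967, 10549 and 11233 in SAM1 and 8912, 8950 and 8551 in SAM2, and it was higher in both lines, by 0.71 (adjusted p = 1.98e-09) and 0.40 (adjusted p = 7.88e-07). Scaling to these genes shifted the median of all genes in SAM1 by -0.41, and scaling to the library sum shifted it by 0.10. Relative to the median of all genes, the median of the members in SAM1 was -0.15 with the deposited scaling and with the reference genes, -0.11 with the library sum and -0.0003 after quantile normalization. In SAM2 the same difference was -0.13, -0.10 and -0.052. Together, the members took 0.829 to 0.927% of the library sums, and the groups overlapped in this share, with means of 0.883% ± 0.0353 in empty vector, 0.866% ± 0.0531 in SAM1 and 0.889% ± 0.0194 in SAM2 (SD, n = 3).

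The 3 genes of the P stalk were lower in both lines. RPLP0 is the scaffold on which dimers of RPLP1 and RPLP2 form the flexible stalk that recruits elongation factors to the ribosome. *Rplp0* had normalized counts of 33902, 32449 and 34167 in empty vector, 23855, 24394 and 23492 in SAM1 and 26174, 26376 and 24151 in SAM2. Every library of both lines lay below the lowest empty vector library, and the log2 fold change was -0.49 (adjusted p = 4.1e-08, standard error 0.036) in SAM1 and -0.39 (adjusted p = 4.59e-07, standard error 0.036) in SAM2. *Rplp1*, one of the 3 most abundant members by count with *Rpl4* and *Rpl8*, had 40558, 43457 and 42134 in empty vector, 28400, 30395 and 27841 in SAM1 and 30003, 30377 and 28912 in SAM2. Its ranges were again apart, with -0.54 (adjusted p = 2e-08) in SAM1 and -0.50 (adjusted p = 6.13e-08) in SAM2, and the lines overlapped each other. *Rplp2* had 11577, 13007 and 12310 in empty vector, 10290, 11530 and 10072 in SAM1 and 9891, 10308 and 9606 in SAM2, with the highest SAM1 library just under the lowest empty vector one. The log2 fold change was -0.21 (adjusted p = 0.00251) and -0.31 (adjusted p = 0.000148), and its call in SAM1 was lost under quantile normalization and under scaling to the library sum. The ratio of *Rplp1* to *Rplp0* within a library was 1.26 ± 0.0742 in empty vector, 1.21 ± 0.0337 in SAM1 and 1.17 ± 0.0279 in SAM2 (SD, n = 3), and these groups overlapped.

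The genes whose proteins bind 5S rRNA differed between the lines. *Rpl5* had 3875, 4201 and 4119 in empty vector, 2941, 3244 and 3084 in SAM1 and 4132, 4133 and 4004 in SAM2. SAM1 was below both other groups, which overlapped, and the log2 fold change was -0.40 (adjusted p = 1.24e-06, standard error 0.041) in SAM1 and 0.0094 (adjusted p = 0.852, standard error 0.041) in SAM2, with 0.41 (adjusted p = 2.22e-06, standard error 0.041) for SAM2 against SAM1. *Rpl11* had 2428, 3086 and 2687 in empty vector, 2650, 3077 and 2791 in SAM1 and 2214, 2338 and 2322 in SAM2. Here SAM2 was the low group, below both others, with -0.25 (adjusted p = 0.0088, standard error 0.074) against empty vector and -0.31 (adjusted p = 0.00293, standard error 0.074) against SAM1, while in SAM1 the value was 0.059 (adjusted p = 0.484, standard error 0.074). The call in SAM2 was lost with the library sum as the scale. A ratio within a library does not depend on its scaling, and that of *Rpl5* to *Rpl11* was 1.60, 1.36 and 1.53 in empty vector, 1.11, 1.05 and 1.10 in SAM1 and 1.87, 1.77 and 1.72 in SAM2. All 3 groups were apart, with SAM1 lowest and SAM2 highest. An exact two-sided permutation test of 3 against 3 libraries gave p = 0.1 for each pair of groups, which is the smallest value it allows.

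Genes for proteins around the peptidyl transferase center did not share a direction. *Rpl8* encodes the universal protein uL2, which lies close to the catalytic site, and had 39449, 45223 and 41522 in empty vector, 48672, 55112 and 48044 in SAM1 and 53940, 55084 and 54003 in SAM2. Both lines were above empty vector, with log2 fold changes of 0.27 (adjusted p = 0.000541, standard error 0.054) in SAM1 and 0.37 (adjusted p = 3.42e-05, standard error 0.054) in SAM2, although relative to *Gapdh* and *Actb* the SAM1 value was -0.14. *Rpl3* was -0.17 (adjusted p = 0.00186) in SAM1, a call lost under quantile normalization and under scaling to the library sum, and 0.064 (adjusted p = 0.166) in SAM2. *Rpl10*, whose protein joins the subunit late and completes the site, was 0.090 (adjusted p = 0.145) in SAM1 and -0.11 (adjusted p = 0.084) in SAM2, and lower in SAM2 than in SAM1 by a direct test, -0.20 (adjusted p = 0.00591). *Rpl8* and *Rplp1* thus went in opposite directions within the same libraries, and the ratio of *Rplp1* to *Rpl8* was 1.001 ± 0.0356 in empty vector, 0.572 ± 0.0174 in SAM1 and 0.548 ± 0.0109 in SAM2 (SD, n = 3), with both lines below empty vector (exact two-sided permutation p = 0.1 each).

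The exit tunnel is lined by RPL4, RPL17 and RPL39 and opens beside RPL23A, RPL26, RPL31 and RPL35, where the signal recognition particle and nascent chain chaperones dock. Its genes held both the largest fall and the largest rise of all members when both lines were taken as one group, *Rpl31* and *Rpl23a*. *Rpl31* had 5030, 4433 and 5026 in empty vector, 3221, 3165 and 3073 in SAM1 and 3205, 3281 and 2705 in SAM2. All SAM libraries were far below empty vector and the lines overlapped, with log2 fold changes of -0.61 (adjusted p = 2.01e-06, standard error 0.067) and -0.66 (adjusted p = 1.14e-06, standard error 0.067). *Rpl23a* had 1863, 2246 and 1956 in empty vector, 2408, 3124 and 2753 in SAM1 and 2758, 2789 and 2722 in SAM2. All SAM libraries were above empty vector, with 0.45 (adjusted p = 0.000242, standard error 0.081) and 0.45 (adjusted p = 0.000241, standard error 0.081), and the difference between the lines was 0.0053 with a 95% interval of -0.17 to 0.18. *Rpl26*, whose protein is also known to bind p53 mRNA, had 2047, 2008 and 2013 in empty vector, 2432, 2637 and 2352 in SAM1 and 2799, 2773 and 2680 in SAM2. The 3 groups were apart in the order empty vector, SAM1, SAM2, with 0.29 (adjusted p = 2.94e-05) and 0.44 (adjusted p = 5.45e-07), and -0.12 in SAM1 relative to *Gapdh* and *Actb*. *Rpl35* had 0.16 (adjusted p = 0.0217) in SAM1 and 0.11 (adjusted p = 0.115) in SAM2, and the difference between the lines had a 95% interval of -0.18 to 0.069. *Rpl4* was lower in SAM1, -0.23 (adjusted p = 6.3e-05), and close to empty vector in SAM2, -0.0096 (adjusted p = 0.822), a difference between the lines of 0.22 (adjusted p = 0.000156). *Rpl17* was higher in SAM2, 0.13 (adjusted p = 0.0332), with ranges that overlapped, and *Rpl39* passed the threshold in neither line, -0.13 (adjusted p = 0.141) and -0.16 (adjusted p = 0.0914).

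**Figure D2:**
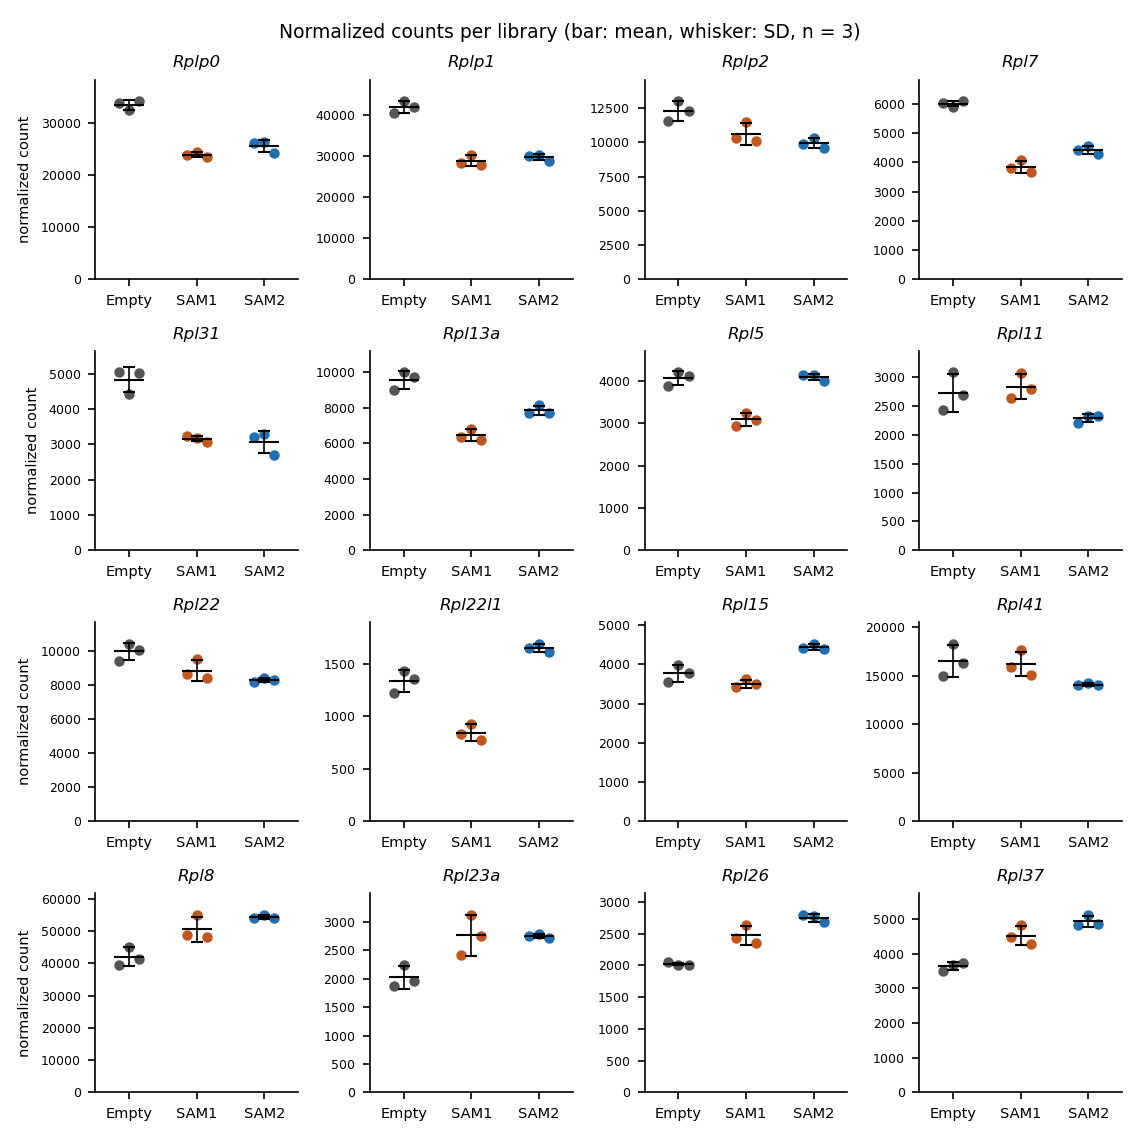
Normalized counts of 16 members in each library, with 3 libraries per group, the mean as a bar and the SD as a whisker. Every axis starts at 0. The P stalk genes, *Rpl7*, *Rpl31* and *Rpl13a* lie lower in both lines on the deposited scale, *Rpl8*, *Rpl23a*, *Rpl26* and *Rpl37* lie higher in both, and *Rpl5*, *Rpl11*, *Rpl22l1* and *Rpl15* set the lines apart.

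Bridges between the subunits are formed in part by RPL19, RPL24 and RPL41. *Rpl19* was lower in both lines, -0.36 (adjusted p = 1.93e-06) and -0.22 (adjusted p = 0.000247). *Rpl41*, which encodes one of the smallest proteins of the cell, was lower in SAM2, -0.23 (adjusted p = 0.00653), a call lost under quantile normalization and with the library sum, and not called in SAM1, -0.026 (adjusted p = 0.725), and the lines differed by -0.20 (adjusted p = 0.0161). *Rpl24* passed the threshold in neither line, at -0.0056 (adjusted p = 0.957) and -0.18 (adjusted p = 0.0803).

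*Rplp0*, *Rpl14*, *Rpl22* and *Rpl28* are members that were also followed by qRT-PCR, and all 4 were lower in both lines in these counts. The study's qRT-PCR was set against *Gapdh*, beta-actin or both, a scale unlike that of the deposited counts, in which *Gapdh* was higher in both lines. *Rpl14* had 6660, 7268 and 7370 in empty vector, 5253, 5945 and 5295 in SAM1 and 5676, 5687 and 5467 in SAM2. The lines overlapped below empty vector, with -0.37 (adjusted p = 1.47e-05) and -0.34 (adjusted p = 3.73e-05). *Rpl28* had 5661, 6021 and 5542 in empty vector, 4081, 4296 and 3880 in SAM1 and 4740, 4511 and 4601 in SAM2, and the 3 groups were apart with SAM1 lowest, at -0.49 (adjusted p = 1.75e-07) and -0.31 (adjusted p = 1.67e-05). *Rpl22* was the least changed of the 4, -0.17 (adjusted p = 0.00477) and -0.26 (adjusted p = 0.000216), its SAM1 range overlapped empty vector, and its SAM1 call was lost under quantile normalization and scaling to the library sum.

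Other solvent-side and core proteins carried the largest remaining falls. *Rpl7* had 6053, 5908 and 6097 in empty vector, 3810, 4077 and 3672 in SAM1 and 4425, 4550 and 4275 in SAM2. All 3 groups were apart, SAM1 being lowest, and the log2 fold change was -0.64 (adjusted p = 5.69e-09, standard error 0.039) in SAM1, the smallest adjusted p of all members, and -0.45 (adjusted p = 2.9e-07, standard error 0.039) in SAM2. *Rpl13a*, whose protein also takes part in the interferon-gamma-activated inhibitor of translation complex, had 8989, 9970 and 9718 in empty vector, 6372, 6809 and 6185 in SAM1 and 7699, 8137 and 7685 in SAM2. The groups were again apart, at -0.57 (adjusted p = 7.61e-08) and -0.29 (adjusted p = 6.9e-05). *Rpl27a* was -0.56 (adjusted p = 6.02e-07) and -0.41 (adjusted p = 1.51e-05), and *Rpl34* was -0.46 (adjusted p = 1.82e-07) and -0.38 (adjusted p = 1.28e-06). For *Rpl34* the ranges of both lines lay between 9405 and 10518, under the lowest empty vector value of 12894. Smaller falls past the threshold in both lines were seen in *Rpl6*, *Rpl9*, *Rpl21*, *Rpl23*, *Rpl27*, *Rpl35a*, *Rpl36* and *Rpl37a*, which lay between -0.40 and -0.11. With the library sum, *Rpl27* and *Rpl35a* were called in neither line. *Rpl18* was called lower in SAM1, -0.22 (adjusted p = 0.000996), a call lost with the library sum, with -0.10 (adjusted p = 0.0695) in SAM2, and *Rpl38*, known for its part in *Hox* mRNA translation, was lower in SAM2, -0.21 (adjusted p = 0.00703), with -0.13 (adjusted p = 0.0599) in SAM1. *Rpl13*, *Rpl29* and *Rpl36a* were called in neither line, with values from -0.064 to 0.0079.

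The rises formed a smaller set. *Rpl37* had 3501, 3686 and 3727 in empty vector, 4470, 4811 and 4278 in SAM1 and 4820, 5121 and 4841 in SAM2. The groups were apart in the order empty vector, SAM1, SAM2, with 0.31 (adjusted p = 2.43e-05, standard error 0.044) and 0.44 (adjusted p = 1.07e-06, standard error 0.044), and -0.095 in SAM1 relative to *Gapdh* and *Actb*. *Rpl12*, whose protein sits at the base of the P stalk, had 5296, 6221 and 5657 in empty vector, 7013, 8044 and 6830 in SAM1 and 6223, 6294 and 6448 in SAM2. It rose more in SAM1, 0.35 (adjusted p = 0.000184), than in SAM2, 0.15 (adjusted p = 0.0491), and the lines differed by -0.20 (adjusted p = 0.0121), but relative to *Gapdh* and *Actb* the SAM1 value was -0.058. *Rpl30* and *Rpl7a* were also higher in both lines, at 0.16 and 0.26 for *Rpl30* and 0.17 and 0.12 for *Rpl7a*. *Rpl32* was higher in SAM2, 0.15 (adjusted p = 0.00643), with 0.035 (adjusted p = 0.462) in SAM1. In SAM1, *Rpl35* was also negative relative to *Gapdh* and *Actb*, and *Rpl23a* was no longer called on that scale.

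SAM2 and SAM1 were also compared directly. In SAM2, 5 members were lower and 20 higher than in SAM1, against 29.2% and 31.1% of all genes, with a median difference of 0.071 and -0.0075 over all genes. The ranges of the lines did not overlap for 6 members below and 18 above (33.4% and 34.8% of all genes). The split was 10 and 11 after quantile normalization (28.8% and 30.4% of all genes), 8 and 15 after scaling to the library sum (34.4% and 27.3%), and 0 and 47 relative to *Gapdh* and *Actb* (9.61% and 68%), a scaling that moved the median of all genes by 0.39. The 5 lower members, *Rpl10*, *Rpl11*, *Rpl12*, *Rpl36al* and *Rpl41*, had positive values relative to *Gapdh* and *Actb*. The largest difference was that of *Rpl22l1*. *Rpl15* had 3552, 3984 and 3778 in empty vector, 3418, 3621 and 3490 in SAM1 and 4423, 4533 and 4401 in SAM2. SAM2 lay above both other groups and exceeded SAM1 by 0.34 (adjusted p = 9.43e-06, standard error 0.041). In SAM1, *Rpl15* was -0.10 (adjusted p = 0.0357) with ranges that overlapped, and its value turned positive with the library sum. *Rpl10a* was -0.16 (adjusted p = 0.000373) in SAM1, not called after quantile normalization or with the library sum, and 0.067 (adjusted p = 0.0641) in SAM2, apart by 0.22 (adjusted p = 3.05e-05), and *Rpl13a* was apart by 0.28 (adjusted p = 0.00012).

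The 3 close copies were set beside the genes they resemble. *Rpl22l1* encodes an RPL22-like protein that RPL22 is known to hold down at the level of its mRNA. It had normalized counts of 1219, 1431 and 1356 in empty vector, 831, 929 and 769 in SAM1 and 1645, 1690 and 1612 in SAM2. The 3 groups were apart, with SAM1 lowest and SAM2 highest, and the log2 fold change was -0.66 (adjusted p = 1.24e-06, standard error 0.069) in SAM1, 0.31 (adjusted p = 0.00134, standard error 0.069) in SAM2 and 0.97 (adjusted p = 6.85e-08, standard error 0.069) between the lines. The ratio of *Rpl22l1* to *Rpl22* within a library was 0.129, 0.137 and 0.134 in empty vector, 0.0959, 0.0973 and 0.0914 in SAM1 and 0.201, 0.200 and 0.193 in SAM2, again with no overlap (exact permutation p = 0.1 for each pair). *Rpl7l1*, related to an early assembly factor, had 6896, 7108 and 7085 in empty vector, 6763, 7090 and 6761 in SAM1 and 7675, 7837 and 7712 in SAM2, and it was -0.033 (adjusted p = 0.314) in SAM1 and 0.14 (adjusted p = 0.000743) in SAM2. Its ratio to *Rpl7* was 1.17 ± 0.0324 in empty vector, 1.79 ± 0.0519 in SAM1 and 1.75 ± 0.0442 in SAM2 (SD, n = 3). Both lines were above empty vector in this ratio, and they overlapped each other. *Rpl36al* was lower in SAM2, -0.25 (adjusted p = 0.00472), a call lost with the library sum, and its ratio to *Rpl36a* was 0.313 ± 0.0115, 0.320 ± 0.00815 and 0.276 ± 0.0230 in empty vector, SAM1 and SAM2 (SD, n = 3).

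**Figure D3:**
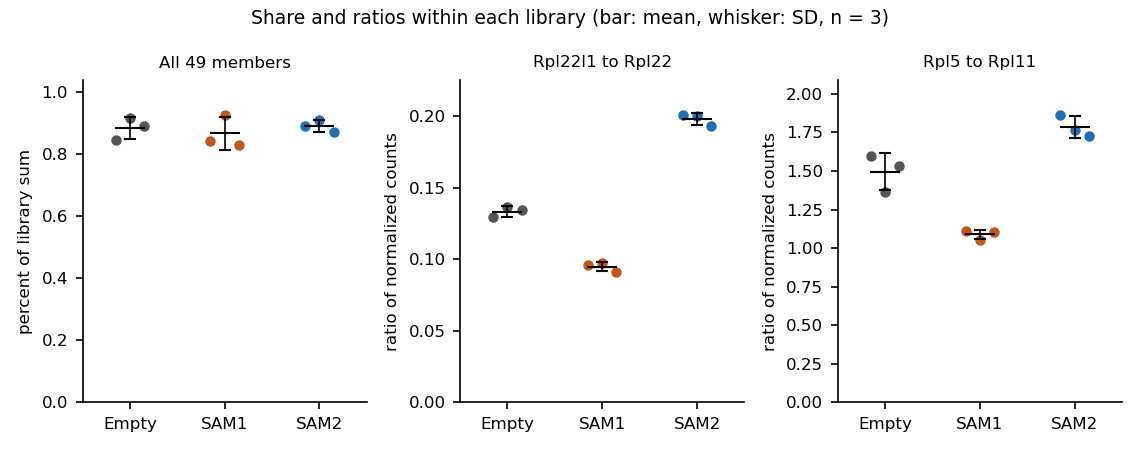
The left panel shows the share of each library sum taken by the 49 members in percent, and the other panels show the ratio of *Rpl22l1* to *Rpl22* and of *Rpl5* to *Rpl11*, with 3 libraries per group, the mean as a bar and the SD as a whisker. The shares overlap between 0.829% and 0.927%, whereas both ratios are lowest in SAM1 and highest in SAM2 with no overlap.

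On several chromosomes the members moved together with the other genes there. Positions are those of GRCm39 with GENCODE vM39. All 3 members on chromosome 1 were lower in both lines, all 5 on chromosome 7 were lower in SAM1 and 4 in SAM2, and all 5 on chromosome 5 were lower in SAM1 and 4 in SAM2. On chromosome 15, 3 of 4 were higher in each line, and on chromosome 2 all 3 were higher in SAM1 and 2 in SAM2. The other genes of these chromosomes moved the same way in their medians, which in SAM1 and SAM2 were -0.21 and -0.18 on chromosome 1, -0.27 and -0.24 on chromosome 7, -0.16 and -0.14 on chromosome 5, 0.19 and 0.32 on chromosome 15, and 0.27 and 0.16 on chromosome 2. Other chromosomes went against this in SAM1. There the median was 0.53 on chromosome 14, where the 1 member was lower, 0.14 on chromosome 17, where 2 of 3 were lower and 0 higher, 0.084 on chromosome 3, where both were lower, and 0.085 on chromosome 8, where 1 of 2 was lower. In SAM2 the median was 0.57 on chromosome 14, where the member was higher. It was 0.17 on chromosome 17 and 0.063 on chromosome 3, each with 1 member lower and 1 higher. On chromosome 8 it was 0.018, with 0 members called.

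At a finer scale, each member was set beside its neighbors. Around *Rpl7* (chr1:16169408-16174886, minus strand), the 23 other tested genes that start within 5 Mb had a median log2 fold change of -0.68 in SAM1 and -0.64 in SAM2, where *Rpl7* had -0.64 and -0.45. Around *Rpl31* (chr1:39406884-39413938, plus strand) the 67 neighbors had -0.47 and -0.47. Around *Rpl37* (chr15:5145959-5153877, plus strand) the 26 neighbors had 0.40 and 0.64, and around *Rpl26* (chr11:68792344-68797822, plus strand) and *Rpl23a* (chr11:78071753-78074425, minus strand) they had 0.35 and 0.41, and 0.29 and 0.38. Of the 28 members called lower in SAM1, 22 had neighbors with a median below 0, and so did 22 of the 24 called lower in SAM2. All 8 members called higher in SAM1 and all 12 in SAM2 had neighbors with a median above 0. Across the 49 members, the Spearman correlation between a member's change and the median of its neighbors was 0.677 in SAM1 and 0.798 in SAM2. Across 14700 other genes it was 0.291 and 0.356. These other genes were taken at all levels and were not matched to the members in abundance. These are descriptions across genes measured in the same libraries, and genes are not independent replicates.

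Not every member followed its neighborhood. *Rplp1* (chr9:61820557-61821872, minus strand) had -0.54 and -0.50 where its neighbors had -0.12 and -0.048. *Rplp0* (chr5:115694515-115701793, plus strand) lay -0.36 and -0.28 from the median of its neighbors, and *Rpl34* (chr3:130519106-130524155, minus strand) -0.47 and -0.33. *Rpl22l1* (chr3:28859585-28861573, plus strand) lay -0.71 from its neighbors in SAM1 and 0.29 in SAM2, and its neighbors were near 0 in both lines (0.044 and 0.019). For the members called lower, the median distance from their neighbors was -0.19 in SAM1 and -0.075 in SAM2. For those called higher it was -0.042 and 0.011. The part of the neighborhood in the members' changes was not tested.

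**Figure D4:**
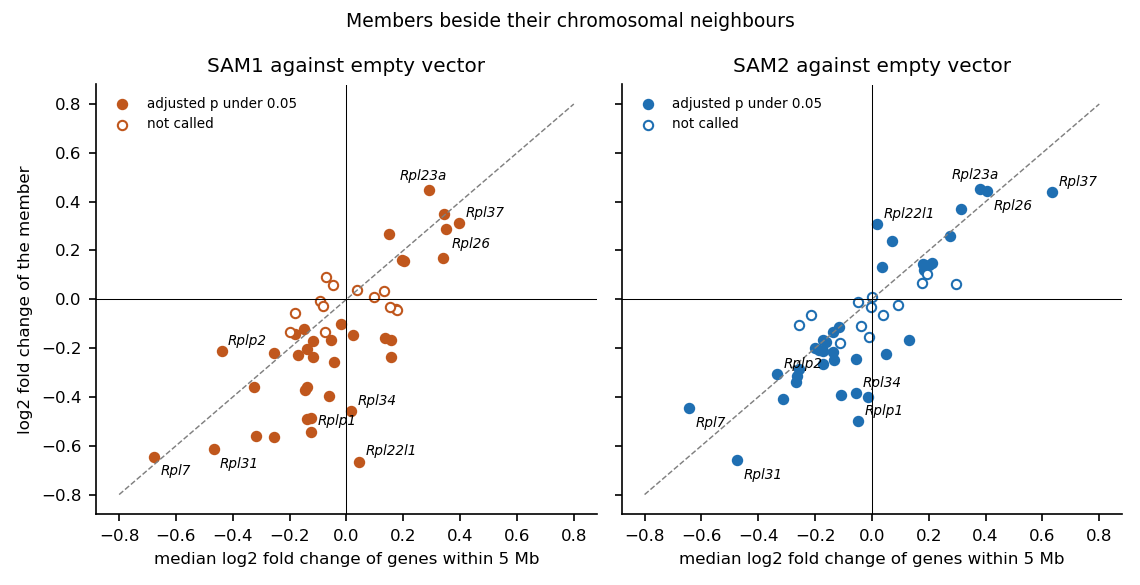
Log2 fold change of each member (vertical axis) against the median log2 fold change of the other tested genes within 5 Mb (horizontal axis) in SAM1 and SAM2, with filled points where the adjusted p was under 0.05 and a dashed line where both are equal. *Rpl7* and *Rpl31* lie at the low end of both axes and *Rpl37*, *Rpl26* and *Rpl23a* at the high end, while *Rplp1* and *Rpl34* lie below the dashed line in both SAM1 and SAM2 and *Rpl22l1* lies below it in SAM1 and above it in SAM2.

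Ribosomal protein mRNAs of vertebrates typically begin with a terminal oligopyrimidine tract, a cytosine at the cap followed by a run of pyrimidines, through which mTOR signaling controls their translation. To show what the members that rose and fell share at their starts, 30 bases around the RefSeq transcription start (15 before it and 15 from it) were read for the 37 members with an entry in the RefSeq promoter table (GRCm38.p6) and placed on GRCm39 by an exact match of the table's sequence, which failed for *Rpl15*. The other 12 members, *Rpl7*, *Rpl8*, *Rpl23a* and *Rplp1* among them, had no entry. The search was for a C followed by at least 4 C or T on the transcribed strand, starting within 5 bases of the annotated start, and the tract is in capitals.
A set of 6 members that were lower in both lines and hold a tract is shown first, followed by *Rplp0*, one of 7 that were lower in both lines and held none in any window read (*Rpl6*, *Rpl9*, *Rpl22*, *Rpl23*, *Rpl27*, *Rpl37a* and *Rplp0*).
Rpl13a, chr7:44778155-44778184, minus strand: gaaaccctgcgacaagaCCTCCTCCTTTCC
Rpl14, chr9:120400568-120400597, plus strand: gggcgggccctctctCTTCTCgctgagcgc
Rpl27a, chr7:109118387-109118416, plus strand: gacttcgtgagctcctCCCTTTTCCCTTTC
Rpl28, chr7:4795949-4795978, plus strand: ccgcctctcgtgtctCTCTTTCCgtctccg
Rpl31, chr1:39406917-39406946, plus strand: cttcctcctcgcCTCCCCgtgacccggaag
Rplp2, chr7:141027549-141027578, plus strand: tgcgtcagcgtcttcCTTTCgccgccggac
Rplp0, chr5:115697511-115697540, plus strand: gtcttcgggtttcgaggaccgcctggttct
Of 4 members that were higher in both lines, *Rpl7a* and *Rpl12* held a tract, and *Rpl26* and *Rpl37* held none in this window.
Rpl7a, chr2:26800804-26800833, plus strand: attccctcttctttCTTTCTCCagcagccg
Rpl12, chr2:32851709-32851738, plus strand: ggcggagcaggatccgtCTTTTCggctttc
Rpl26, chr11:68792377-68792406, plus strand: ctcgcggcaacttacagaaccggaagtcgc
Rpl37, chr15:5146080-5146109, plus strand: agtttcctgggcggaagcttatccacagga
Of *Rpl22l1* and *Rpl5*, which differed between the lines, *Rpl22l1* held a tract and *Rpl5* held none.
Rpl22l1, chr3:28859642-28859671, plus strand: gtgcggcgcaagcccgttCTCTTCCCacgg
Rpl5, chr5:108048379-108048408, plus strand: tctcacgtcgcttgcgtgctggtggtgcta

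A tract began within 5 bases of the start in 45.9% of the 37 members, 50% of 24 small-subunit genes and 23.9% of the 11165 genes of the table that had an entry. It began exactly at the annotated start in 18.9%, 25% and 3.01%. By call, it was found in 12 of 22 members lower in SAM1 and 3 of 5 higher, and in 10 of 20 lower in SAM2 and 4 of 7 higher. These are matches of letters near annotated starts and no test was made.

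The tract is shared with genes outside the ribosome, and related lists were described in the same way. For reference, 36.9% of all genes were lower and 37.3% higher in SAM1, and 35.3% and 35.2% in SAM2. Of 14 other mRNAs known to carry such a tract, such as those of elongation factors, 7 were lower and 3 higher in SAM1, and 3 lower and 6 higher in SAM2. Of 34 small-subunit genes, 16 were lower and 4 higher in SAM1, and 21 and 3 in SAM2, with medians of -0.15 and -0.21. Of 37 factors that assemble the large subunit, 26 were lower and 8 higher in SAM1, and 25 and 6 in SAM2, with medians of -0.23 and -0.21. The 49 large-subunit genes of the mitochondrial ribosome gave 27 lower and 13 higher in SAM1, and 25 and 10 in SAM2, with medians of -0.15 and -0.13. Among the 9 members whose human counterparts are mutated in Diamond-Blackfan anemia, an inherited red cell aplasia, 6 were lower and 2 higher in SAM1 and 4 were lower and 2 higher in SAM2. *Rpl31* fell and *Rpl26* rose in both lines, and *Rpl5*, *Rpl11* and *Rpl15* differed between them.

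Levels varied over a wide range between members. Per kilobase of coding sequence, the highest in empty vector were *Rplp1* (122953 ± 4242), *Rpl41* (119845 ± 12121) and *Rpl8* (54559 ± 3794), and the lowest were *Rpl36al* (2404 ± 92.8), *Rpl24* (3558 ± 286) and *Rpl22l1* (3679 ± 295), in normalized counts per kilobase (SD, n = 3). The coding lengths are those of the annotated canonical transcripts, 138 bases for *Rpl41*, and a different coding length would change the level and the order. The libraries of only 10 of the 48 pairs of neighbors in this order did not overlap. *Rpl36al* and *Rpl24* are each overlapped by another gene on the same strand, a limit described below. Per kilobase of the whole annotated transcript, the same 3 were highest, but *Rpl36al*, *Rpl37* and *Rpl37a* were lowest, in an annotation with long transcripts for some members. By normalized count, *Rpl4*, *Rpl8*, *Rplp0* and *Rplp1* alone held 38.4 to 39.99% of the sum of the members.

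These genes have many processed pseudogenes, and short reads from a member can match elsewhere. Of the 43-base stretches of the coding sequence, 90.3% occurred nowhere else in the genome for *Rpl8*, 75.3% for *Rpl4* and 68.1% for *Rpl7l1*. Under 50% did for 43 of the 49 members, and 20 had none, *Rpl5*, *Rpl11*, *Rpl23a* and *Rpl31* among them. *Rpl7a* had exact matches at 140 other places, *Rpl29* at 105, *Rpl21* at 95 and *Rpl23a* at 36. Reads with up to 20 places were kept in the alignment, and how the counting treated them is not given in the sources used here. The levels of these members, and the ratios between them, are therefore uncertain. The unique share went with the level per kilobase in empty vector (Spearman correlation 0.496 across 49 members) but hardly with the change in SAM1 (-0.095) or SAM2 (-0.098). Coding length had -0.11 with the change in SAM1 and 0.14 in SAM2. In the 6 members with a unique share of at least 50%, *Rpl8* was higher in both lines, *Rpl4* lower in SAM1, *Rpl22* lower in both, *Rpl41* lower in SAM2, *Rpl7l1* higher in SAM2 and *Rpl39* not called. These shares depend on the annotated coding sequences, which are short in *Rpl41* (138 bases) and *Rpl39* (237 bases).

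Genes that lie inside or across members add a second limit. In 20 members the gene holds an annotated small nucleolar RNA, a class that guides the modification of ribosomal RNA, and *Rpl13a* alone holds *Snord32a*, *Snord33*, *Snord34* and *Snord35a*. Of these 20 hosts, 10 were lower and 5 higher in SAM1 and 6 were lower and 7 higher in SAM2, and of the other 29 members 18 were lower and 3 higher in SAM1 and 18 and 5 in SAM2. Over all genes the shares were 36.9% and 37.3% in SAM1 and 35.3% and 35.2% in SAM2. In GENCODE vM39, genes on the opposite strand overlap 29 members, among them *Ube2s* at *Rpl28*, *Tbc1d8* at *Rpl31* and *Tlcd1* at *Rpl23a*. The kit kept the strand, but whether the counting used it is not given in the sources used here, so reads of such pairs cannot be told apart. Genes on the same strand overlap *Rpl13a* (*Gm45713*), *Rpl19* (*Gm11629*), *Rpl24* (*Gm28037*) and *Rpl36al* (*Gm49383*). How the counting treated reads shared with them is not given either, so these levels and ratios built on them are uncertain. The study counted reads with GENCODE vM29, in which the overlapping genes may differ.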

How the data were processed

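RNA was sequenced from 9 libraries of mouse embryonic fibroblasts as 43 + 43 base pairs of reads from polyA+ fragments. Per the study's methods, the authors aligned reads with TopHat2 to GRCm39 with up to 20 places per read, counted them per gene with HTSeq and kept genes above 10 in part of the libraries. The submitters' processing notes name FastQC 0.11.0. The deposited values are a normalized signal, counts divided by DESeq2 size factors, for 15184 genes. Reads came out whole (within 0.01) for 100% of values in 8 libraries, all but SAM2 replicate 1. That library's depth is unknown, and it was left out of the count models.

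Samples were grouped by their labels. Differences were tested with limma 3.58.1 (R 4.3.3, trend) on log2(value + 1), two-sided, with Benjamini-Hochberg adjustment over all genes, in a fit of 6 against 3 libraries and a fit of 3 groups. The fold changes are on that scale. Scripts were tested on simulated data first. Pseudocounts, a stricter filter, other scalings, a block for replicate number, each library left out, edgeR 4.0.16 and DESeq2 1.42.0 on the recovered reads were tried, and limma on those 8 libraries was added after seeing the data. No set test was made.

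The members and lists were chosen with earlier results of these data known. By rule, the text names the qRT-PCR genes, the P stalk, the 5S pair, close copies, the 8 lower and 5 higher members with the smallest adjusted p in each line, 5 each way between the lines and the 3 highest and 3 lowest per kilobase, and Diamond-Blackfan genes as a group. The others are named by role. Some values are not reported here.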

Additional observations from a re-analysis of the deposited data

Results flagged for a closer look

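The response against empty vector differed between SAM1 and SAM2 in 18 of the 33 members chosen by the naming rule, by the test of SAM2 against SAM1 in the 3-group limma fit (adjusted p under 0.05). The difference is given as SAM2 minus SAM1 on the log2 scale, and the empty vector libraries cancel in it.

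*Rpl22l1* differed most, by 0.97, and with *Rpl15* (0.34) it was called lower in SAM1 and higher in SAM2. *Rpl5* differed by 0.41, *Rpl3* by 0.23 and *Rpl10a* by 0.22, and these were called lower in SAM1 and not called in SAM2. *Rpl13a* (0.28), *Rpl7* (0.20), *Rpl28* (0.18), *Rpl27a* (0.15) and *Rplp0* (0.095) were lower in both lines and less so in SAM2. *Rpl26* (0.15) and *Rpl37* (0.13) were higher in both lines and more so in SAM2, whereas *Rpl12* (-0.20) rose more in SAM1. *Rpl7l1* (0.17) was called higher in SAM2 and not called in SAM1. *Rpl11* (-0.31), *Rpl36al* (-0.29) and *Rpl41* (-0.20) were called lower in SAM2 and not called in SAM1, and *Rpl10* (-0.20) was called in neither. The SAM2 against SAM1 calls of *Rpl27a*, *Rpl37* and *Rplp0* were lost under quantile normalization and with the library sum, and that of *Rpl26* under quantile normalization. The labels do not say which guide each line carries or how its libraries arose, so guide, line and library handling cannot be told apart.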

How the results depend on the processing

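Pseudocounts of 0.5 and 10 and a filter above 10 in every library left the counts of members called within 1 of those reported. On the recovered reads of 8 libraries, edgeR called 20 and 6 members lower and higher with both lines as one group, 27 and 8 in SAM1, 23 and 9 in SAM2 and 5 and 17 between the lines. DESeq2 called 21 and 7, 27 and 8, 22 and 9 and 5 and 18, and limma on the same 8 libraries, added after seeing the data, 21 and 7, 27 and 8, 23 and 9 and 5 and 17. Over all genes, edgeR called 5525 lower and 5625 higher in SAM1 (36.4% and 37.0%). It called 26.2% and 26.9% for both lines, 33.2% and 32.6% in SAM2 and 27.2% and 28.3% between the lines. DESeq2 called 27.0% and 27.8% for both lines and 34.8% and 34.5% in SAM1. In SAM2 it called 30.7% and 30.7%, and between the lines 23.4% and 26.4%. Limma on the 8 libraries called 26.5% and 26.5% for both lines and 36.3% and 36.9% in SAM1. In SAM2 it called 33.1% and 32.9%, and between the lines 26.3% and 28.0%. The mean of both lines from the 3-group fit called 26 and 9 members, where 37.0% and 37.5% of all genes were called.

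Scaling moved the results most. The medians of the members were -0.093 (both lines), -0.047 (SAM1) and -0.086 (SAM2) after quantile normalization, and -0.021, -0.0020 and -0.031 with the library sum. Relative to *Gapdh* and *Actb* they were -0.36 for both lines, -0.55 in SAM1 and 0.46 between the lines. Members called lower and higher numbered 17 and 11 in SAM1 and 10 and 11 between the lines after quantile normalization. With the library sum they numbered 11 and 10 for both lines, 14 and 14 in SAM1, 14 and 17 in SAM2 and 8 and 15 between the lines, and relative to *Gapdh* and *Actb* 22 and 0, 46 and 0, 26 and 9 and 0 and 47. Of the named members lower in SAM1, 11 of 19 were called so under all 3 scalings, namely *Rpl5*, *Rpl7*, *Rpl13a*, *Rpl14*, *Rpl22l1*, *Rpl27a*, *Rpl28*, *Rpl31*, *Rpl34*, *Rplp0* and *Rplp1*. In SAM2, 11 of 16 lower and 7 of 8 higher were, the exception among the higher being *Rpl12*. Between the lines, 9 of 13 higher and 0 of 5 lower were, and all 5 lower were called so after quantile normalization and with the library sum.

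Values changed sign in 27 cases in which the main or the alternative fit called the gene. In SAM1, *Rpl7l1* became 0.092 after quantile normalization and 0.11 with the library sum, as did *Rpl15* 0.039 and *Rpl27* 0.021. Relative to *Gapdh* and *Actb* in SAM1, *Rpl8* -0.14, *Rpl10* -0.32, *Rpl11* -0.35, *Rpl12* -0.058, *Rpl26* -0.12, *Rpl35* -0.25, *Rpl36a* -0.40, *Rpl36al* -0.37 and *Rpl37* -0.095 were negative. Between the lines on that scale, *Rpl10* 0.19, *Rpl11* 0.080, *Rpl12* 0.18, *Rpl22* 0.30, *Rpl24* 0.21, *Rpl27* 0.34, *Rpl31* 0.34, *Rpl35* 0.33, *Rpl35a* 0.35, *Rpl36a* 0.32, *Rpl36al* 0.10, *Rpl39* 0.36, *Rpl41* 0.19 and *Rplp2* 0.29 were positive. Among 2541 single-gene values under an alternative, 2341 kept the call or stayed uncalled, 98 lost the call and 75 gained one. Sign changes in values that neither fit called are counted within the 2341.

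With each library left out in turn, members lower and higher ranged over 15 to 22 and 5 to 8 for both lines (median -0.17 to -0.10), 25 to 31 and 7 to 10 in SAM1 (median -0.20 to -0.12), 23 to 27 and 9 to 14 in SAM2 (median -0.18 to -0.11), and 4 to 7 and 15 to 26 between the lines (median 0.046 to 0.12). That last median moved by over 1.5 times without SAM1 replicate 1 (0.047), replicate 2 (0.12) or replicate 3 (0.046). Of all genes, 22.3 to 27.0% were lower and 22.2 to 26.6% higher for both lines in these fits. In SAM1 the shares were 35.3 to 36.4% and 35.3 to 37.1%, and in SAM2 33.1 to 35.9% and 32.9 to 35.8%. Between the lines they were 26.2 to 30.4% and 28.0 to 32.2%.

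The replicate numbers of the labels were not taken as pairs. Deviations of same-numbered libraries correlated across genes with a mean r of 0.0531, from 0.00237 to 0.117, against -0.0265 for different numbers, and not every library correlated best with its own number. With the replicate number as a block, 22 and 7 members were lower and higher for both lines, 30 and 9 in SAM1, 28 and 14 in SAM2 and 9 and 24 between the lines. Of all genes, 24.3% and 24.1% were then lower and higher for both lines, and 38.1% and 38.5% in SAM1. In SAM2 the shares were 36.5% and 36.6%, and between the lines 31.3% and 33.3%. The cause of these shifts was not tested. Depth did not limit the members, of which *Rpl36al* in SAM2 had the lowest mean normalized count (646), whereas shared sequence limits how well a read is assigned to 1 of them.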
